A study of Mus musculus with 6 samples.

Results

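The 10 genes examined were those of creatine cycling (Ckb, Ckmt2, Gatm, Gamt, Slc6a8 and Alpl) and calcium cycling (Atp2a1, Atp2a2, Ryr1 and Ryr2), out of 21938 protein-coding genes that GENCODE M21 places on chromosomes 1 to 19, X and Y of mm10. They were chosen by their function. Every ATAC-seq peak whose summit lay between 50 kb before and 50 kb after one of these genes was kept. Peaks of different libraries that overlapped by at least 1 bp were joined into 1 region, which gave 262 regions around the 10 genes out of 194610 regions in all. The series holds 6 libraries of primary adipocytes differentiated in culture for 7 days, 2 each of beige, white and brown adipocytes, all from wild-type male C57BL/6J mice aged 3 to 4 weeks. Beige and white adipocytes were grown from the stromal vascular fraction of inguinal fat, and brown adipocytes from that of brown fat. All cultures were induced with insulin and 0.5 mM isobutyl methylxanthine. Dexamethasone was added at 5 μM to beige and brown adipocytes and at 1 μM to white adipocytes. Beige and brown adipocytes, unlike white ones, also received T3 at 1 nM and rosiglitazone at 1 μM. Insulin, which the labels give as 5 μg/ml for all cultures, was kept on afterwards in every culture, and T3 and rosiglitazone were kept on in the beige and brown cultures. The study's methods give other insulin doses, lower in beige than in white medium, so that insulin may also differ between these conditions. Brown adipocytes differed from white adipocytes in both tissue of origin and medium, so that these cannot be told apart. The study describes the ATAC-seq libraries of a group as biological replicates, but it lists only the beige and white ones. It does not describe the brown libraries, nor whether they were made together with the others. The labels do not say whether the libraries of a group came from separate mice.

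ATAC-seq marks DNA that a transposase can reach, and open sites lie mostly at promoters and enhancers. In the futile creatine cycle, a creatine kinase forms phosphocreatine from creatine and ATP, and a phosphatase splits it again, so that ATP is spent and heat is released. In calcium cycling, SERCA pumps spend ATP to move calcium into the endoplasmic reticulum, and ryanodine receptors let it out again. Both cycles are known as ways for beige and brown fat to make heat without Ucp1, the uncoupling protein of brown fat mitochondria. Ckb encodes the cytosolic brain-type creatine kinase, Ckmt2 the sarcomeric mitochondrial creatine kinase, Gatm and Gamt the enzymes of creatine synthesis, Slc6a8 the creatine transporter of the plasma membrane, and Alpl the tissue-nonspecific alkaline phosphatase that acts on phosphocreatine. Atp2a1 and Atp2a2 encode the pumps SERCA1 and SERCA2, the first best known from fast skeletal muscle and the other widely expressed. Ryr1 and Ryr2 encode the release channels known from skeletal muscle and heart.

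The 6 lists held between 109143 and 127490 peaks and no read counts. By the study's reporting summary, a smaller share of the reads was mapped in the beige than in the white libraries, and the part of this in the differences below was not tested. A level was therefore given as a percentile, which is the rank of a peak's −log10 q value among all peaks of its own list, with 100 for the strongest. A region open in more cells and a region more open in each cell give the same value and cannot be told apart. The largest number of regions around the 10 genes, 177, was found in beige replicate 2, and the other 5 libraries had 134 to 147. Both beige libraries had a peak in 64.9% of the regions that either of them had, against 59.4% for the white pair and 59.4% for the brown pair. Beige replicate 1 and brown replicate 1 shared 63.6%, which is above the white and the brown pairs, so that the replicates of a condition were not always closest to each other. Over all regions the shares were 66.9% for the beige, 56.9% for the white and 60.7% for the brown pair. Beige replicate 1 and brown replicate 1 shared 62.5% of all regions, so that this was not particular to the 10 genes. All 10 adipocyte marker genes had a promoter peak in all 6 libraries. Of the 8 thermogenic genes, 6 had one in all 6, Cox8b had none, and Ucp1 had one in brown adipocytes only, at a −log10 q of 3.91 and 2.97. Because several of the 10 genes are known from muscle, 10 skeletal muscle markers were also counted. In any given library, 2 to 4 of them had a promoter peak. The 2 that were open in each of the 6 were Mylpf, at percentiles of 96.2 to 99.1, and Des, at 12.6 to 62.9. Of the muscle regulators, Myog, Myf5 and Myf6 had no promoter peak. The regulator Myod1 had one in white replicate 2 alone, at a percentile of 15.8 and a −log10 q of 4.11. Markers of progenitors, cells that such cultures start from, had promoter peaks for 8 to 9 of 10 genes in a library, macrophage markers for 3 to 5 of 10 and endothelial markers for 7 to 8 of 10. Of all protein-coding genes, 67.6% to 68.6% had a promoter peak in a given library and 63.9% in all 6. The part of other cell types in the results below was not tested.

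Counted by gene, the same 8 genes had an open promoter in the 3 kinds of adipocytes, while single start sites differed and are described below with each gene. A peak within 1 kb of an annotated start site was present in all 6 libraries for 8 of the 10 genes, where 63.9% of all protein-coding genes had one. The weakest of these was Ryr1 in brown replicate 2, with a −log10 q of 4.94 near an inner start site. Atp2a1 had a promoter peak in none of the libraries, like 26.7% of all protein-coding genes. Ckmt2 had one in white replicate 1 alone, at a percentile of 10.0 and a −log10 q of 3.27, and 3.37% of all protein-coding genes had a promoter peak in a single library. No gene had a promoter peak in both libraries of 1 condition and in none of the rest. For most of these genes the promoter peak was modest in rank. The median promoter percentile over all protein-coding genes with a peak was between 90.8 and 93.5 in the 6 libraries, and only Gamt and Atp2a2 came near this level.

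**Figure D1:**
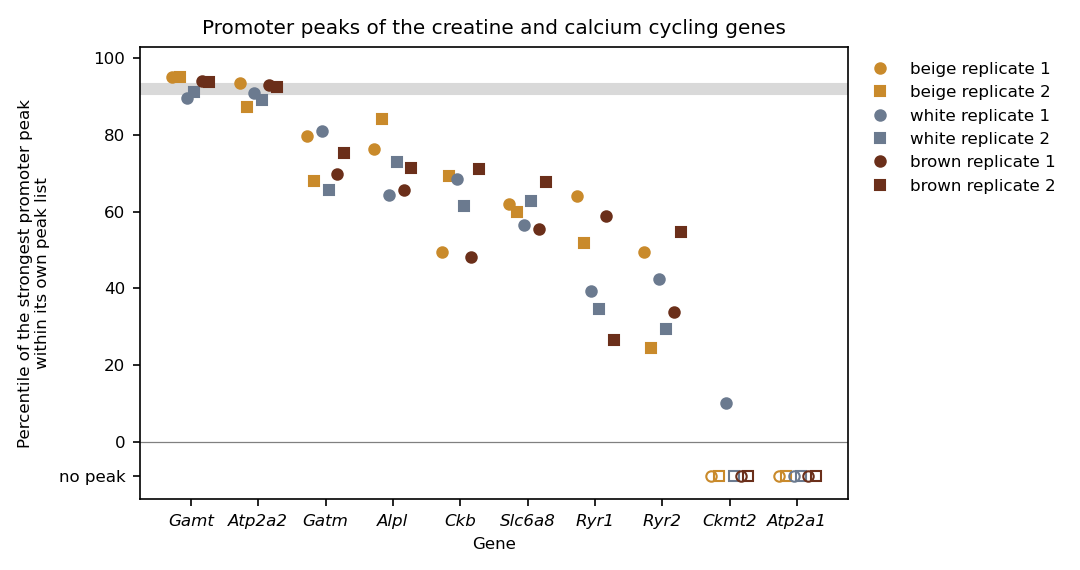
Percentile of the strongest promoter peak of each gene (y axis, rank within the library's own peak list, 100 is the strongest) for the 10 genes (x axis), with 1 point per library and open symbols in the row "no peak" where none was called; the grey band spans the 6 medians over all protein-coding genes. Gamt and Atp2a2 lie between 87.4 and 95.2, Gatm to Ryr2 lie lower, Ckmt2 has 1 point at 10.0 and Atp2a1 has none.

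The order of the genes by median promoter percentile was Gamt (94.0), Atp2a2 (91.8), Gatm (72.6), Alpl (72.2), Ckb (65.0), Slc6a8 (61.0), Ryr1 (45.6) and Ryr2 (38.2). Gamt and Atp2a2 stood above the other 6 in every library. The ranges of Gamt and Atp2a2 over the 6 libraries overlapped. Among the other 6 genes, each overlapped with its neighbours in this order, so that neighbours did not differ beyond their spread.

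The sequences of 4 promoters are shown, Ckb and Alpl with a peak in all 6 libraries, and Ckmt2 and Atp2a1 as the least open. The promoter of highest rank, that of Gamt, is not among them. The sequences are taken from RefSeq on GRCm38.p6 and run from 250 bases before to 50 bases after the start. Capitals mark the matches to the NFY word CCAAT and to a MEF2 word made of CTA and TAG with 4 bases between. RefSeq promoters were at hand for 8 of the 10 genes, not for Atp2a2 and Slc6a8.
Ckb promoter (chr12:111672289-111672588, minus strand): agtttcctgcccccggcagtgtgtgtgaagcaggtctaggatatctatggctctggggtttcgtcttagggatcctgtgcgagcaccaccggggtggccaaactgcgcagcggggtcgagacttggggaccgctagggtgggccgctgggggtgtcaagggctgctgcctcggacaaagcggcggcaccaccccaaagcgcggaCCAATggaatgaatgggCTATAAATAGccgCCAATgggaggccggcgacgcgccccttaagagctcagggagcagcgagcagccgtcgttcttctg
Alpl promoter (chr4:137796335-137796634, minus strand): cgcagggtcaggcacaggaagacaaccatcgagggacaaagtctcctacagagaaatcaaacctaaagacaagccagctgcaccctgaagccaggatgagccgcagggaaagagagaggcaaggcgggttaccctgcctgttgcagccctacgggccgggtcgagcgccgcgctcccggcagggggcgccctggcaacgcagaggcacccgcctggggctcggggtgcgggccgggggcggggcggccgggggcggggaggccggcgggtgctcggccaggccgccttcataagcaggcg
Ckmt2 promoter (chr13:91876836-91877135, minus strand): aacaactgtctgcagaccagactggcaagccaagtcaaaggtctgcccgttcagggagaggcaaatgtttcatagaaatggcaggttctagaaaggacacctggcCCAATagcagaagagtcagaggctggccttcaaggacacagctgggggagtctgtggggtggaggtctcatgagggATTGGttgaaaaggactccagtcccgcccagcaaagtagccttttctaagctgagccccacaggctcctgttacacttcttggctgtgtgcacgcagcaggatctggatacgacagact
Atp2a1 promoter (chr7:126463024-126463323, minus strand): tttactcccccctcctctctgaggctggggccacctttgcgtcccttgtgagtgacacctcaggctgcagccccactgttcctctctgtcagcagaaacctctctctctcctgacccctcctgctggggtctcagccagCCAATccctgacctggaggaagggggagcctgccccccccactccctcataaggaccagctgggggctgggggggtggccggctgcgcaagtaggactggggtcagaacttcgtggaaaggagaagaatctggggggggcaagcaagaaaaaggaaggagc

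Both of the least open promoters were poor in CpG. The ratio of observed to expected CpG was 0.187 in Ckmt2 and 0.137 in Atp2a1, against 0.755 in Ckb, 0.720 in Alpl and 0.799 in Gatm, with 0.566 in Ryr2, 0.469 in Gamt and 0.374 in Ryr1. Among 32851 RefSeq promoters, a peak was present in all 6 libraries at 9.99% of those with a ratio below 0.25 and at 93.8% of those with a ratio of 0.75 and over. CCAAT was found on either strand in the Ckb, Ckmt2 and Atp2a1 promoters and in those of Gatm and Ryr1, as in 37.4% of all promoters. The MEF2 word was found in the Ckb promoter and in 3.69% of all promoters. These matches describe letters in the window. CCAAT was found in open promoters and in the least open ones. The MEF2 word was missing from the least open promoters and also from the open ones of Alpl, Gatm, Gamt, Ryr1 and Ryr2.

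Ckb was open at its promoter in every library, with percentiles of 49.4 and 69.2 in beige, 68.5 and 61.5 in white, and 48.1 and 71.2 in brown adipocytes. The 3 conditions overlapped, and the replicates of beige and of brown adipocytes differed by more than the conditions did. The window around Ckb was the densest of the 10, with 24 regions or 23.3 per 100 kb, against 14.1 per 100 kb over the 10 windows together. The window of Ryr2 took 654 of their 1852 kb, and the density over the whole genome was not computed. A region 3.8 kb from the start, just past the end of the gene, ranked above the promoter in all 6 libraries. Its percentiles were 90.9 and 90.8 in beige, 85.5 and 82.8 in white, and 84.7 and 87.5 in brown adipocytes, and both beige values lay above the other 4.

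Around Ckb, 13 of 24 regions were open in all 6 libraries (54.2%, against 30.2% of all regions). A region 14.3 kb before the start was found in beige adipocytes alone, at percentiles of 38.5 and 35.4, and another 8.4 kb after the start in white adipocytes alone, at 39.9 and 36.2. Both lay between genes and ranked in the lower part of their lists. At 9.8 kb before the start, in an intron of Trmt61a, beige adipocytes were lowest, with 45.0 and 44.6 against 51.4 to 54.9 in the other 4 libraries. At 32.4 kb before the start, white adipocytes were highest, with 97.3 and 98.4 against 89.8 to 93.6. Beige libraries ranked above brown ones at 24.2 kb before the start (85.2 and 82.1 against 64.0 and 63.7), while white adipocytes gave 60.9 and 90.1. The same was seen in the intron of Mark3 at 18.7 kb, where beige adipocytes had 74.6 and 85.0, white 46.1 and 75.0, and brown 61.0 and 56.1. In these last regions the white replicates lay too far apart to be placed.

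Ckmt2 was the least open of the creatine genes. Each of the 4 regions with a summit between its start and its end, the promoter included, was seen in a single library. Its window held 20 regions, of which 4 were open in all 6 libraries (20%, against 30.2% of all regions). The nearest region open in several libraries lay 5.4 kb before the start, in the untranslated end of the neighbouring gene Rasgrf2, and was present in beige and white adipocytes and absent from brown adipocytes. Its percentiles were 60.9 and 68.9 in beige and 53.4 and 55.4 in white adipocytes, with −log10 q values of 16.4, 25.5, 10.3 and 10.6, so that it was no marginal call in any of the 4 libraries. The other regions shared by all libraries before the gene lay in introns of Rasgrf2, at 16.5, 31.5 and 39.2 kb. The shared region after the gene was the promoter of Zcchc9.

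The genes of creatine synthesis were open at their promoters in all conditions. Gatm, whose product makes guanidinoacetate, had promoter percentiles of 79.8 and 68.1 in beige, 81.0 and 65.6 in white, and 70.0 and 75.2 in brown adipocytes, and the conditions overlapped. Behind the gene, regions moved in opposite directions. At 41.7 kb from the start beige adipocytes were highest, with 65.4 and 76.4, against 28.0 and 51.4 in white and 49.8 and 9.18 in brown adipocytes. Nearer to the gene, at 35.7 kb, beige adipocytes were lowest with 40.3 and 39.4, white highest with 69.7 and 73.4, and brown between them with 60.5 and 50.9. At 29.8 kb white adipocytes were again highest, with 59.7 and 64.2 against 39.7 to 47.7 in the other 4 libraries. All 3 regions lie between genes, and Gatm is the nearest protein-coding gene by its start site. The central 201 bases of the region at 35.7 kb are shown because it separated all 3 conditions without overlap. The capitals mark the AP-1 word TGANTCA, which was found in 21.2% of all regions and in 19.8% of the 262 regions.
Gatm +35.7 kb (chr2:122575505-122575705, plus strand): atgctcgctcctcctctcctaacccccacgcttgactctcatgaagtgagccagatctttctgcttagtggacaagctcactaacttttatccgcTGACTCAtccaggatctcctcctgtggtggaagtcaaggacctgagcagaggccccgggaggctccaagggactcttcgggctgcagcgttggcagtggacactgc

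Gamt, which methylates guanidinoacetate to creatine, had the highest median promoter percentile of the 10 genes, although Atp2a2 ranked above it in white replicate 1, and its peak lay at a site shared with the neighbouring gene Dazap1. Its percentiles were 95.2 and 95.1 in beige, 89.8 and 91.2 in white, and 94.2 and 93.8 in brown adipocytes. The means were 95.1 ± 0.0858 (SD, n = 2 libraries) in beige, 90.5 ± 1.02 (SD, n = 2) in white and 94.0 ± 0.262 (SD, n = 2) in brown adipocytes, so that both white libraries lay below the other 4 by a few percentile points. A site within the gene, 1.7 kb from the first start, ranked lower, with 50.4 to 72.9, and the conditions overlapped. A wider separation was found 21.2 kb before the start, at another start of Dazap1. There beige adipocytes had 80.2 and 80.3, white 34.9 and 63.3, and brown 86.7 and 88.1. At 34.7 kb before the start, a peak at the promoter of Apc2 was present in beige (52.9 and 62.5) and white adipocytes (51.0 and 36.9) and absent from brown adipocytes. Of the 9 regions shared by all libraries around Gamt, 7 ranked higher in beige than in white adipocytes and none lower, where 27.0% and 21.3% of all shared regions did so (33.8% and 18.0% of those at protein-coding promoters). Of these 9, 5 ranked higher in brown than in white, against 21.2% of all shared regions (26.9% at promoters). Most of the 9 lay at promoters of Gamt or its neighbours.

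Slc6a8 had peaks at the first start site and 1.4 kb behind it in all 6 libraries. The strongest peak near the first start had percentiles of 62.1 and 59.8 in beige, 19.3 and 62.7 in white, and 55.5 and 67.9 in brown adipocytes, and the low value came from white replicate 1 alone. Near the start site at 2.4 kb they were 54.8 and 58.4 in beige, 56.6 and 45.8 in white, and 55.5 and 48.9 in brown adipocytes, and a peak between both sites could count for both. A separate peak 0.6 kb before the start was present in beige (35.5 and 46.1) and brown adipocytes (28.6 and 25.1) and absent from white adipocytes. Its −log10 q fell to 4.73 in brown replicate 2, the lowest of the 4. At the promoter of Dusp9, 33.7 kb before Slc6a8, brown adipocytes had 66.1 and 73.6, beige 50.4 and 58.5, and white 52.0 and 7.29. Slc6a8 lies on chromosome X, and all donors were male.

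Alpl held the widest separation between the adipocytes among the shared regions of the 10 genes. Its window held 34 regions, 14 of them open in all 6 libraries (41.2%, against 30.2% of all regions). At the first start the percentiles were 76.5 and 84.2 in beige, 45.3 and 73.0 in white, and 63.3 and 64.3 in brown adipocytes, so that both beige libraries lay above the other 4. Another start site, 26.6 kb into the gene, was open in all libraries at 64.4 to 74.5 and did not separate the conditions. The start site 49.2 kb into the gene, used by a non-coding transcript of Alpl, was open in beige (55.1 and 54.0) and brown adipocytes (30.6 and 46.2) and had no peak in either white library, a class that was lost when peaks had to share 0.5 of their length. Its −log10 q was 13.3 and 14.3 in beige and 6.94 and 8.30 in brown adipocytes. The site at 14.2 kb had a peak in brown replicate 2 alone, and the other 2 sites, at 11.0 and 29.9 kb, had none. The RefSeq promoter at 29.9 kb had a CpG ratio of 0.181, against 0.720 at the first start.

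The region of this widest separation lay behind Alpl, 60.7 kb from its start and 6.01 kb past its end, in sequence between genes. Its percentiles were 77.3 and 70.8 in beige and 81.9 and 84.7 in brown adipocytes, against 16.2 and 4.85 in white adipocytes. The −log10 q was 32.5 and 27.6 in beige, 46.3 and 42.9 in brown, and 3.91 and 2.82 in white adipocytes, where the peak was near the limit of being called. By fold enrichment the ranks were 68.6 and 59.4 in beige, 74.2 and 79.4 in brown, and 3.73 and 2.42 in white adipocytes. The lowest of the 4 beige and brown percentiles stood 54.7 points above the higher white one, and 8 of all 58720 regions shared by the 6 libraries, or 0.0136%, had a gap at least as wide. This region was picked as the widest of its kind around the 10 genes, so that the share only places it and is no test. Its nearest protein-coding start is that of Rap1gap, 7.51 kb away. The central 201 bases of this region and of the site at 48.9 kb are shown because they separate white from beige and brown adipocytes. The capitals mark AP-1 (TGANTCA) and an EBF word made of TCCC and GGGA with 2 bases between, which was found in 1.39% of all regions. The other window held none of the 10 motifs searched.
Alpl +60.7 kb (chr4:137735621-137735821, plus strand): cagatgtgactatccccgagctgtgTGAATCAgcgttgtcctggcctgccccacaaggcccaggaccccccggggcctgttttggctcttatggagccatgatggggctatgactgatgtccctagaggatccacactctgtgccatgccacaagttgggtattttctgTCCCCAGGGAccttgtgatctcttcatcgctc
Alpl +48.9 kb (chr4:137747389-137747589, plus strand): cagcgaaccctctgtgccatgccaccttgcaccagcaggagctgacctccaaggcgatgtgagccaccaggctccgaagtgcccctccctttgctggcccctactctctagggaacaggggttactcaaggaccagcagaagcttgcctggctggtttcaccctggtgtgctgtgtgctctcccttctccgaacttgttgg

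Other regions around Alpl separated in the same direction with narrower gaps. In an intron at 25.4 kb, beige adipocytes had 84.9 and 89.8, brown 87.7 and 90.3, and white 65.1 and 71.2. At 73.5 kb, near a start of Rap1gap, beige adipocytes had 69.0 and 70.1, brown 58.7 and 57.4, and white 33.9 and 45.7. At 82.2 kb, in an intron of Rap1gap, a peak was present in beige (46.7 and 53.3) and brown adipocytes (30.2 and 25.5) and absent from white adipocytes. The opposite direction was also present. At 65.5 kb white adipocytes were highest, with 84.4 and 82.4 against 73.2 to 76.2 in the other 4 libraries, and in the neighbouring region at 66.1 kb beige adipocytes were highest, with 90.7 and 91.6 against 75.0 and 86.7 in white and 76.8 and 75.6 in brown adipocytes. Of the 14 shared regions around Alpl, 6 ranked higher in beige than in white adipocytes and 3 lower, against 27.0% and 21.3% of all shared regions. In brown adipocytes 5 ranked higher than in white ones and 3 lower, against 21.2% and 27.5%. The count lower in beige was thus at the share of all shared regions.

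**Figure D2:**
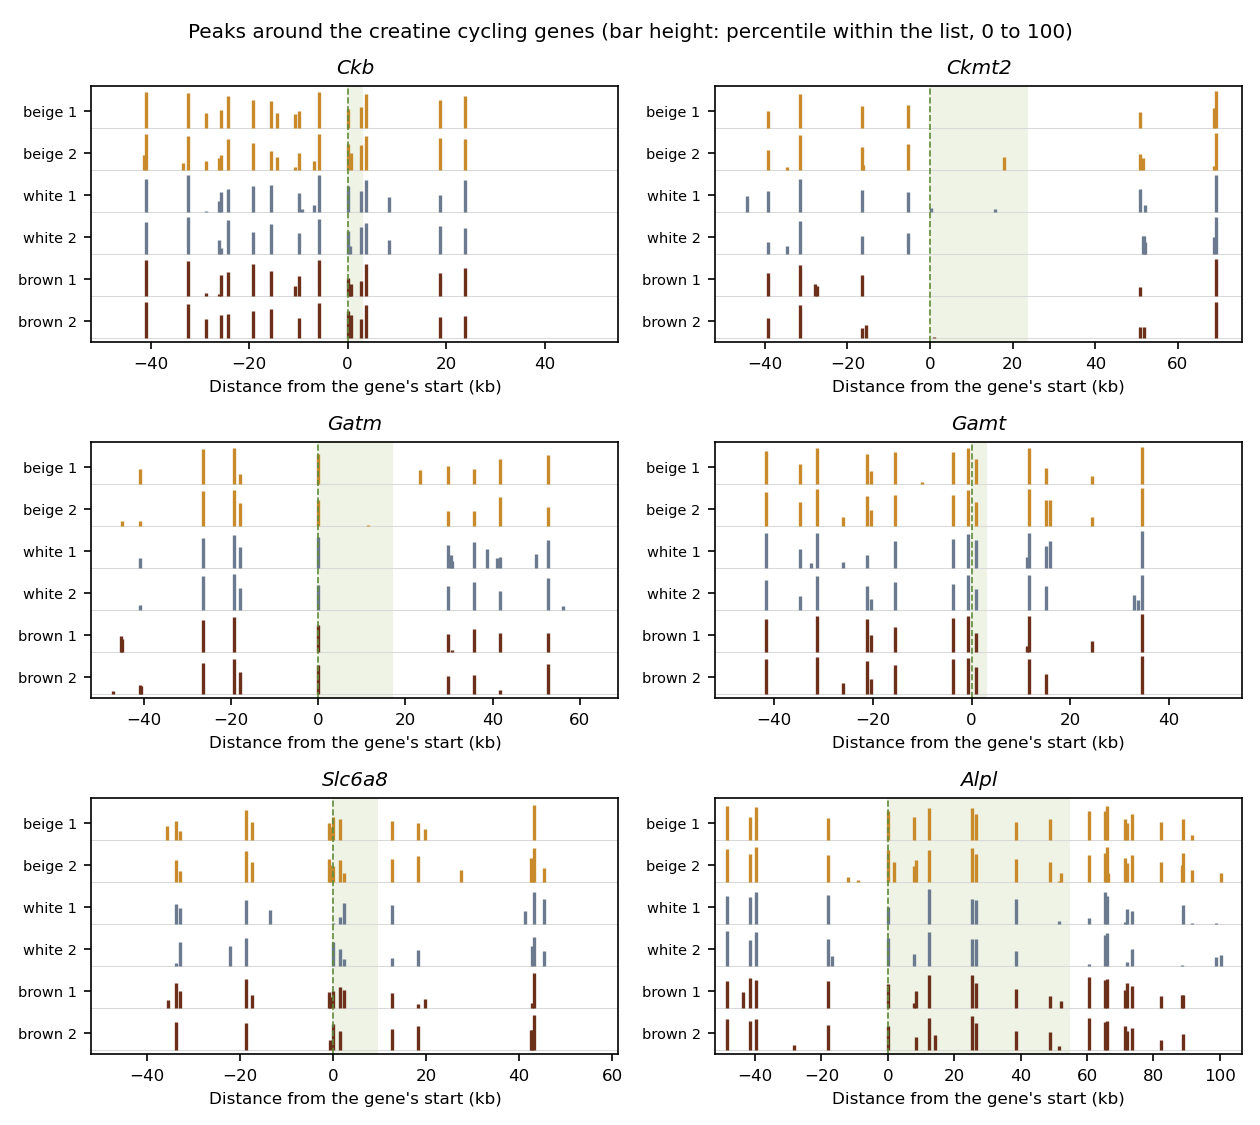
Peaks around the 6 creatine genes, with the distance from the gene's start in kb along the direction of transcription on the x axis, 1 lane per library, and bars whose height is the percentile within that library's list (0 to 100 from the base to near the top of a lane); the green field is the gene body and the dashed line its start. Ckmt2 has almost no peak in its gene body, and at 60.7 kb in Alpl the beige and brown bars are tall and both white bars are short.

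Of the calcium pumps, Atp2a2 was open and Atp2a1 was not. Atp2a2 had promoter percentiles of 93.6 and 87.4 in beige, 91.1 and 89.3 in white, and 93.0 and 92.4 in brown adipocytes. These ranges overlapped. Around Atp2a2, 7 of 22 regions were open in all 6 libraries (31.8%, near the 30.2% of all regions). A region in its coding sequence at 44.0 kb was found in beige adipocytes alone, at percentiles of 34.4 and 25.7. At 27.6 kb before the start, both white libraries (46.4 and 68.3) ranked above both brown ones (32.8 and 40.1), with beige adipocytes at 46.6 and 51.8. Nearby, at 24.8 kb, a peak was present in beige (30.4 and 49.0) and brown adipocytes (9.96 and 7.85) and absent from white adipocytes. Both brown peaks ranked near the bottom of their lists, with a −log10 q under 5.

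Atp2a1 had no peak at either of its 2 start sites, and its gene body held 1 region, seen in beige replicate 2 and brown replicate 1 at percentiles of 1.66 and 1.70. Its window was nevertheless not closed, with 20 regions, of which 9 were open in all 6 libraries (45%, against 30.2% of all regions). Of the 20, 9 lay at the promoters of other genes, among them Nfatc2ip, Rabep2, Sh2b1, Tufm and Atxn2l. The promoter of Sh2b1, 12.0 kb before Atp2a1, had percentiles of 94.6 and 93.1 in beige, 87.9 and 91.2 in white, and 91.1 and 91.6 in brown adipocytes. Of the 9 shared regions, 6 ranked higher in beige than in white adipocytes and 1 lower, against 33.8% and 18.0% of all shared promoter regions. Of these 9, 7 lay at the promoters of other genes.

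The release channels had weak promoters. Ryr1 had percentiles at its first start of 64.2 and 28.0 in beige, 39.2 and 34.6 in white, and 58.8 and 12.2 in brown adipocytes, and the replicates of beige and brown adipocytes differed by more than the conditions did. At a start site 53.1 kb into the gene, peaks were called in both beige libraries (22.7 and 52.0), in white replicate 1 (5.45) and in brown replicate 2 (26.4). The strongest regions within the gene lay in introns at 81.7 and 85.4 kb, were open in all 6 libraries at 68.7 to 88.4, and ranked above the Ryr1 promoter in each of them. An intron at 74.2 kb had a peak in beige adipocytes alone, at percentiles of 35.8 and 48.6. Far behind the gene, a region 155.1 kb from its start was present in beige (51.8 and 64.4) and brown adipocytes (68.0 and 75.3) and absent from white adipocytes, with −log10 q values of 12.0, 21.1, 23.5 and 25.2. It lies between genes, 33.2 kb past the end of Ryr1 and 4.72 kb from the nearest start of Eif3k. In an intron of Actn4, at 170.2 kb, the peak was present in beige (31.5 and 68.6) and white adipocytes (45.7 and 72.8) and absent from brown adipocytes. The central 201 bases at 155.1 kb are shown because its peaks were clear of the threshold in the 4 libraries that had them. The window held none of the motifs searched.
Ryr1 +155.1 kb (chr7:28970013-28970213, plus strand): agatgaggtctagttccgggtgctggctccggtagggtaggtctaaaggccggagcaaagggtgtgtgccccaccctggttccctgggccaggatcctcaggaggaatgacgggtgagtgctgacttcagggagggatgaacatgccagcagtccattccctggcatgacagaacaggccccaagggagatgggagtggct

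Ryr2, the longest of the genes at 554 kb, had the thinnest window, with 41 regions or 6.27 per 100 kb, and 24 of them were seen in 1 library only. Its promoter percentiles were 49.4 and 24.4 in beige, 42.5 and 29.4 in white, and 33.9 and 54.6 in brown adipocytes, and the conditions overlapped. An intron region at 201.6 kb separated all 3 conditions, with 51.9 and 53.5 in beige, 36.5 and 23.3 in white, and 64.8 and 69.1 in brown adipocytes. At 543.1 kb, near the end of the gene, brown adipocytes were lowest with 40.8 and 52.3, against 64.0 to 78.8 in the other 4 libraries. A peak at 479.3 kb was found in beige adipocytes alone, at 28.8 and 44.2. The central bases of the region at 201.6 kb are shown because its order of brown, beige and white did not overlap between libraries. The capitals mark AP-1 and the C/EBP word TTGCNNAA, which was found in 12.6% of all regions and in 9.16% of the 262 regions.
Ryr2 +201.6 kb (chr13:11905243-11905443, plus strand): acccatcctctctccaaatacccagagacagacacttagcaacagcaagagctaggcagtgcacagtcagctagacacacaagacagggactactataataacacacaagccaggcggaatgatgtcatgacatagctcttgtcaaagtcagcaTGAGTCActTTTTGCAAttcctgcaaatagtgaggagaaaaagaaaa

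**Figure D3:**
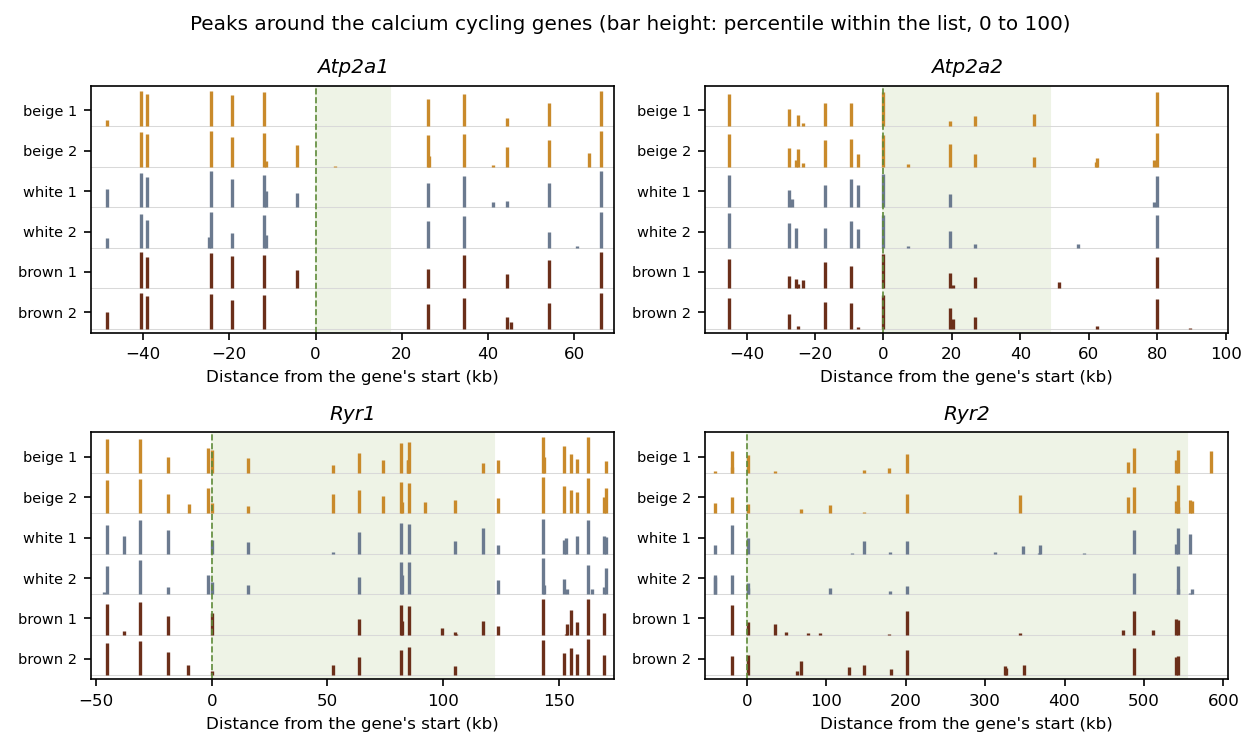
Peaks around the 4 calcium genes, drawn with the distance from the gene's start in kb along the direction of transcription (x axis), 1 lane per library, bar height as the percentile within the library's list, the gene body in green and its start as a dashed line. The start of Atp2a1 has no bar, that of Atp2a2 has tall bars in all 6 lanes, and in Ryr1 the white lanes have none at 155.1 kb.

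Counted together, the 262 regions were spread over the conditions much like regions elsewhere. A region was called present in a condition when both libraries had a peak and absent when neither had. A peak in all 3 conditions was found for 83 regions (31.7%), where the share over all regions was 30.2%. Beige adipocytes alone had 4 regions (1.53%, against 1.94% of all regions), white adipocytes alone 5 (1.91%, against 1.23%) and brown adipocytes alone 1 (0.382%, against 0.877%). Beige and brown but not white adipocytes had 5 regions (1.91%, against 1.25%), beige and white but not brown 6 (2.29%, against 1.16%) and white and brown but not beige 0 (against 0.243%). These shares rest on few regions and lie near the background. With presence counted only at a −log10 q over 5, all conditions had 70 regions (26.7%, against 25.5% of all regions). Beige alone had 4 (1.53%, against 0.960%), white alone 1 (0.382%, against 0.353%) and brown alone 0 (against 0.262%). Beige and brown had 2 (0.763%, against 0.544%), beige and white 3 (1.15%, against 0.488%) and white and brown 0 (against 0.0442%). The remaining 158 regions at the lower threshold (60.3%, against 63.1% of all regions) had a peak in 1 of the 2 libraries of at least 1 condition, and 85 were seen in a single library. The share of all regions seen in a single library was not counted.

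**Figure D4:**
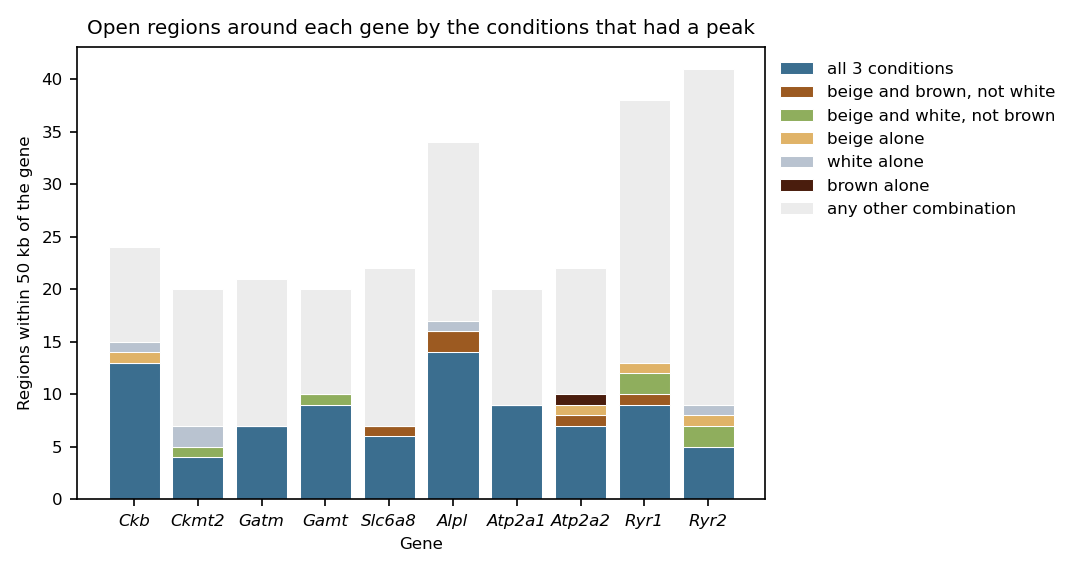
Number of regions within 50 kb of each gene (y axis, stacked) by the conditions in which both libraries had a peak (colours), for the 10 genes (x axis). The dark blue part, open in all 3 conditions, runs from 4 regions in Ckmt2 to 14 in Alpl, and the regions found in 1 or 2 conditions are 0 to 4 per gene.

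Ranks were compared only at shared regions and by another criterion than presence, so that both kinds of counts cannot be set against each other. Among the 83 shared regions, both beige libraries ranked above both white ones in 36 (43.4%), against 27.0% of all shared regions, and below them in 9 (10.8%), against 21.3%. Brown adipocytes ranked above white ones in 26 (31.3%, against 21.2%) and below in 15 (18.1%, against 27.5%). Between beige and brown adipocytes, beige ranked higher in 34 (41.0%, against 32.8%) and brown in 11 (13.3%, against 18.4%). All 4 beige and brown libraries stood above both white ones in 21 regions (25.3%, against 13.4%) and below them in 7 (8.43%, against 14.1%). The median difference between the beige and the white mean percentile, with its sign kept, was 4.86 points over the 83 regions and 0.989 over all shared regions. Taken without sign, the median difference between the 2 white replicates over the same 83 regions was 7.39 points, against 2.60 in beige and 4.69 in brown adipocytes. Measured without sign, a beige and a white library differed by a median of 6.82 to 9.01 points, a range that includes the value of the white replicates. A region can lie at the promoter of another gene. The shared regions were therefore also split into 38 at protein-coding promoters and 45 away from them, a split chosen after the values were seen. At promoters, beige adipocytes ranked above white ones in 21 regions (55.3%, against 33.8% of all shared promoter regions) and below in 2 (5.26%, against 18.0%). Brown adipocytes ranked there above white ones in 17 (44.7%, against 26.9%) and below in 2 (5.26%, against 24.1%). They ranked above beige ones in 4 (10.5%, against 15.6%) and below in 13 (34.2%, against 34.0%). Away from promoters, beige adipocytes ranked above white ones in 15 regions (33.3%, against 24.4% of all shared regions of that kind) and below in 7 (15.6%, against 22.5%). Brown adipocytes ranked there above white ones in 9 (20%, against 19.0%) and below in 13 (28.9%, against 28.8%). They ranked above beige ones in 7 (15.6%, against 19.5%) and below in 21 (46.7%, against 32.3%).

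**Figure D5:**
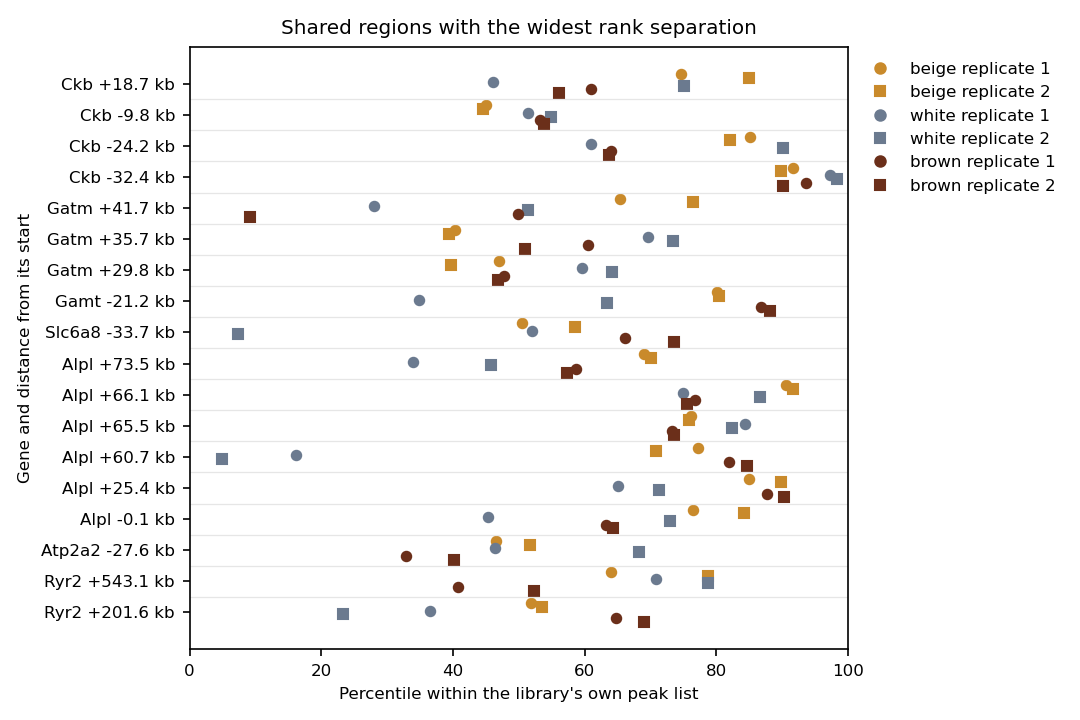
Percentile of each library (x axis, rank within its own peak list) at the shared regions with the widest separation between 2 conditions (y axis, gene and distance from its start in kb), with 1 point per library. At Alpl +60.7 kb the 2 white points lie at 16.2 and 4.85 and the other 4 at 70.8 and above, and at Gatm +35.7 kb the order is white, brown and beige.

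Other genes of both pathways were counted in the same way. Of 41 listed genes, 39 were found in the annotation, and of these 29 had a promoter peak in all 6 libraries (63.9% of all protein-coding genes did), 6 had none (26.7% of all) and 4 had one in some. The genes without a promoter peak were Ckmt1, the ubiquitous mitochondrial creatine kinase, the plasma membrane pump Atp2b2, Sln and Pln, whose small proteins sarcolipin and phospholamban inhibit SERCA, and Trdn and Hrc, which encode proteins of the junctional reticulum of muscle. Jph2, a junctional protein of heart and muscle, had a peak in brown adipocytes only, at percentiles of 34.5 and 5.08. All 5 genes of store-operated calcium entry, all 5 of mitochondrial calcium uptake and release, and the 3 inositol trisphosphate receptors together with Ryr3 were open in all 6 libraries. The median promoter percentile of the listed genes with a peak was 87.9 to 92.2, against 65.6 to 76.5 for the creatine genes described above and 34.6 to 64.2 for the calcium genes. The calcium value is the median of only 3 genes with a peak, Atp2a2, Ryr1 and Ryr2, of which Atp2a2 had 87.4 to 93.6.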

How the data were processed

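The data were the deposited ATAC-seq peak lists of all 6 libraries. The authors trimmed adaptors with Trimmomatic, aligned reads to mm10 with BWA and called peaks in each library by itself with MACS2 at a q value under 0.05. The deposited fold enrichment (a ratio over local background) and −log10 q hold for a summit within its own library, so they were only ranked within a list. Summits that shared an interval were counted once, at the highest −log10 q. The lists hold no reads, which ruled a count test out. The study's reporting summary gives read numbers for the beige and white libraries, which were not used here, and the depth of the brown libraries is unknown. Read trimming, the peak caller's model and its threshold decide whether a weak region is listed at all, and absence from a list is not absence of signal.

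Computations were made in Python 3.11.15 with pandas 2.3.3, numpy 2.4.6 and matplotlib 3.10.9. Genes and start sites came from GENCODE M21 and sequences from RefSeq GRCm38.p6, both of the mm10 build, whose chromosome lengths were checked against the peaks. Start sites within 1 kb of each other were treated as 1 site. Motifs were searched on both strands from 100 bases before to 100 bases after the strongest summit. Conditions were not tested against each other: the smallest two-sided p that an exact permutation can give is 0.333 for 2 against 2 libraries and 0.0667 for 2 against 4. The share over all regions or genes is given in its place. The region classes were tested on simulated data and 7000 of 7000 simulated regions were recovered. The simulated regions lay well apart, and each condition had a peak in both libraries or in neither. Close peaks and regions with a peak in a single library of a condition were therefore not tested. The genes, the lists of other genes and markers and the comparisons were chosen with earlier results of these data known. Individual regions are named where they were found in 1 or 2 conditions with a −log10 q over 5 in every library that had the peak, and, of shared regions, the 5 with the widest gap in each direction between 2 conditions. Regions outside this rule were picked after their values were seen: the region behind Ckb, the introns of Ryr1 at 81.7 and 85.4 kb, the promoter regions, the weaker regions of Slc6a8, Alpl, Atp2a2 and Ckmt2, the region at Sh2b1, and the sequences printed.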

Additional observations from a re-analysis of the deposited data

How the results depend on the processing

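No paired analysis was possible because the conditions were compared by counts and ranks and not by a test. Of 205 values recomputed under alternatives, 141 stayed within 1.5 times the reported count and 64 moved beyond it. Window size moved counts by its own construction. With 20 kb to each side, 157 regions were left, 51 of them open in all conditions, 2 in beige and brown, 3 in beige and white and 2 in white alone, and with 100 kb there were 421, with 149 in all conditions, 9 in beige alone, 3 in brown alone and 2 in white and brown. Ranks were higher in 22 and 62 regions for beige over white, 13 and 44 for brown over white, 9 and 26 for white over brown, 19 and 56 for beige over brown and 6 and 22 for brown over beige at 20 and 100 kb, and in 18 for white over beige at 100 kb. Away from protein-coding promoters, a setting added after the data were seen, the counts were 15, 9 and 7 for beige over white, brown over white and brown over beige, and 21 for beige over brown.

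At a q value under 0.00001, 2 genes (Atp2a1 and Ckmt2) had no promoter peak, 3 regions were in beige and white, 2 in white alone, and brown ranked over beige in 4. Promoter peaks in every library were then found for 7 genes in place of 8, without Ryr1. A promoter distance of 500 bp also gave 7 genes. With lists of equal length, 2 regions were in white alone. Requiring an overlap of 0.5 of both peaks gave 7 in beige alone and 2 in white and brown. Of the named regions, Ckb +8.4 kb, Gamt −34.7 kb, Gamt −21.2 kb and Alpl +48.9 kb lost their class at this overlap. At a q value under 0.00001, Alpl +60.7 kb became a region of beige and brown but not white adipocytes, and Gatm +41.7 kb, Slc6a8 −33.7 kb and Ryr2 +201.6 kb were no longer open in all conditions. With lists of equal length, Alpl +60.7 kb and Slc6a8 −33.7 kb were not. Requiring a −log10 q over 5 gave 2 in beige and brown, 3 in beige and white, 1 in white alone and 0 in brown alone. Ranking by fold enrichment gave 17 for brown over beige, against 11.

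Leaving out 1 library relaxes each criterion, so the counts below rise by construction. Regions in beige alone ranged from 4 to 23, in white alone from 5 to 22, in brown alone from 1 to 18, in beige and brown from 5 to 12, in beige and white from 6 to 10 and in white and brown from 0 to 1. Counts ranged from 36 to 54 for beige over white, 9 to 21 for white over beige, 26 to 43 for brown over white, 15 to 30 for white over brown and 11 to 24 for brown over beige. Beige over white reached 54 without white replicate 1 and stayed between 36 and 52 without any other library. Brown over white reached 43 without white replicate 2 and 39 without brown replicate 1. White over beige gave 21 without either white library and 15 without either beige one, white over brown 25 to 30 without a white or brown library, and brown over beige 22 to 24 without a beige or brown one. Regions in beige alone were 23 and 12 without beige replicates 1 and 2 and 9 without brown replicate 1, those in white alone 18 and 22 without white replicates 1 and 2, and those in brown alone 18 and 14 without brown replicates 1 and 2 and 3 without beige replicate 2. Regions in beige and brown were 12 and 8 without white replicates 1 and 2 and 10 without brown replicate 2, which also gave 10 in beige and white. Without white replicate 1, no promoter peak was found for 2 genes, and otherwise for 1. Promoter peaks in every remaining library were found for 8 genes in each case. Among shared regions, the white replicates differed by a median of 7.39 points.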

Other observations

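Motif words were also counted over the whole set of windows. The MEF2 word was found in 14 of the 262 windows (5.34%, against 2.78% of all regions) and the EBF word in 7 (2.67%, against 1.39%). The PPAR and RXR word, the half-site AGGNCA repeated after 1 base, was found in 2 (0.763%, against 0.459%), and the ERR word TCAAGGTCA in 1 (0.382%, against 0.347%). Lower than over all regions were the NFY word (19.8%, against 24.8%), the C/EBP word (9.16%, against 12.6%) and the AP-1 word (19.8%, against 21.2%). The ETS word CCGGAAG was found in 2.29% (against 2.35%) and the CRE word TGACGTCA in 0.763% (against 0.652%). An NFI word, TTGGC and GCCAA with 5 bases between, was found in 0 (against 0.0668%). The windows around the 10 genes had a median GC content of 53.7%, against 50.2% over all regions, and the part of GC content in these shares was not tested. Among 31 groups of start sites of the 10 genes, 11 had a peak in all 6 libraries, 16 in none and 4 in some. Of the 9 groups of Ryr2 start sites, the first was open and the other 8 had no peak in any library.

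Of the other pathway genes, Orai2, a channel of store-operated calcium entry, had promoter percentiles of 90.0 and 89.1 in beige, 72.9 and 72.5 in white, and 89.0 and 84.7 in brown adipocytes, with both white libraries below the other 4. Cacna1s, the calcium channel of skeletal muscle, had peaks in both beige libraries (61.5 and 52.7) and in brown replicate 1 (37.4) and none in white adipocytes. Both genes were picked after their values were seen.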
